A study of Mus musculus with 9 samples.

Results

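Heme breakdown and iron handling were followed through 10 of the 18349 genes counted in mouse iris RNA. They were the heme oxygenases Hmox1 and Hmox2, the biliverdin reductases Blvra and Blvrb, the ferritin chains Fth1 and Ftl1, the iron transporters Slc40a1 and Slc11a1, the transferrin receptor Tfrc and transferrin itself (Trf). The genes were chosen on their measured fold changes in the comparisons below, so their own values are a description. Whether each passed the threshold of the fit across all genes is given as part of it, and no p-value is printed for them. All 10 were found in the files and all 10 passed the filter on low counts, as did 15010 genes in all.

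The irises came from mice on a C57BL/6J background in 3 groups of 3 libraries, each library pooling 3 irises. Sham VEGFR3fl/fl mice carry loxP-flanked Vegfr3 (gene symbol Flt4) and no Cre, and had 0.5 µL of PBS placed on the cornea. Injured VEGFR3fl/fl mice received corneal alkali injury (CAI), in which paper soaked in 0.5 µL of 1 M NaOH lay on the cornea for 60 s at week 6. Injured VEGFR3iLECko mice had the same injury and carry VEGFR3fl/fl with Prox1-CreERT2, a tamoxifen-activated Cre driven by the Prox1 promoter of lymphatic endothelium. Cre carriers and their littermate controls both received tamoxifen, 80 mg/kg daily on days 13 to 17, and irises were taken at week 10, on day 28. Both sexes were used, and the RNA was of the whole iris without its outer rim, so a deletion in lymphatic endothelium concerns only a part of the cells sampled.

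Library totals ran from 16617187 to 18306359 estimated counts. Flt4, the targeted gene, measured 13.4 to 15.6 CPM (counts scaled to the same library total) in Sham, 16.8 to 23.0 in injured VEGFR3fl/fl and 21.0 to 27.9 in iLECko irises. It was therefore not lower in the libraries labelled iLECko. A count over the whole gene does not show whether a floxed part was removed, so these libraries are called labelled iLECko below. By staining, the paper reported that growth of lymphatic vessels in the injured iris was blocked in VEGFR3iLECko mice. Of 7 lymphatic endothelial markers, Flt4 among them, 3 were lower and 4 higher in labelled iLECko than in injured VEGFR3fl/fl. Iris muscle and pigment markers were present in every group, with Acta2 at 819 CPM or more in each library, but were lower after injury. Pmel was 10.5 times and Myh11 10.1 times lower in injured than in Sham VEGFR3fl/fl, and their part in the CPM values of other genes was not tested. Reads of 4 Y-linked genes summed to 51.1 to 167 CPM in Sham and to 151 and 136 CPM in injured replicates 1 and 2, but to 0.804 CPM in injured replicate 3 and 0.736 to 1.11 CPM in labelled iLECko. The labelled genotype and the sex of the pooled animals therefore cannot be fully told apart. Injured replicate 1 stood apart from its group in several genes that are not of this pathway, such as Ccl21a at 92.4 CPM against 4.62 and 0 in the other two.

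Heme oxygenases open the heme ring and release iron, carbon monoxide and biliverdin, which biliverdin reductases turn into bilirubin. The iron is stored in ferritin, a shell of heavy and light chains, or leaves the cell through ferroportin, the product of Slc40a1. Transferrin carries iron in plasma and in the fluids of the eye, and its receptor takes it into cells. When iron is scarce, iron regulatory proteins bind a hairpin called the iron-responsive element (IRE). Bound at the start of a message it holds back translation, and bound in the 3′ UTR of the Tfrc message it protects the message from decay.

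The IRE hairpins are shown because they divide the 10 genes into those with and without a match to the pattern below. A missing match does not show that a gene lacks this control. The annotated UTRs (GENCODE M21, GRCm38, the mm10 build named in the submitters' processing notes) were searched on the transcribed strand for C, 5 bases, the loop CAGTGN, and 5 bases pairing with the first 5, G–T pairs allowed. Each match is printed 5′ to 3′ with the loop in capitals.
Fth1, 5′ UTR, chr19:9982732-9982760, plus strand: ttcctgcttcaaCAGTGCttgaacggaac
Ftl1, 5′ UTR, chr7:45459779-45459807, minus strand: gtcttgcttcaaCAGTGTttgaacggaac
Slc40a1, 5′ UTR, chr1:45925465-45925493, minus strand: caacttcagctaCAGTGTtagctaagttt
Tfrc, 3′ UTR, chr16:32631219-32631247, plus strand: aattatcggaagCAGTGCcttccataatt
Tfrc, 3′ UTR, chr16:32631598-32631626, plus strand: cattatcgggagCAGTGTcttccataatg
Tfrc, 3′ UTR, chr16:32631663-32631691, plus strand: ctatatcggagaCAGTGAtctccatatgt
Tfrc, 3′ UTR, chr16:32631710-32631738, plus strand: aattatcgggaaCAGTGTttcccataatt
The printed stretches of Fth1 and Ftl1 share 26 of 29 letters, while that of Slc40a1 shares 13 with each of them. The 4 of Tfrc share 18 to 25 letters among themselves. Of genes whose protein-coding transcripts had an annotated 5′ UTR, 0.148% (31 of 20899) held such a match there. For the 3′ UTR it was 0.595% (129 of 21685), and no gene held more than the 4 of Tfrc. The other 6 genes held no match to these letters in their annotated UTRs.

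The first comparison asks how the iris differs 28 days after CAI from the sham iris. All 10 genes were higher in every injured VEGFR3fl/fl library than in every Sham library, a pattern found in 33.9% of all genes tested. Each of the 10 was also called higher, which required an adjusted p below 0.05 (the quasi-likelihood test of edgeR, Benjamini-Hochberg adjusted) and a change above 1.5-fold. Of all genes, 22.1% were called higher and 17.5% lower. The genes' median log2 fold change was 2.04, beside 0.010 for all genes. Since these values chose the genes, nothing is read from the counts.

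**Figure D1:**
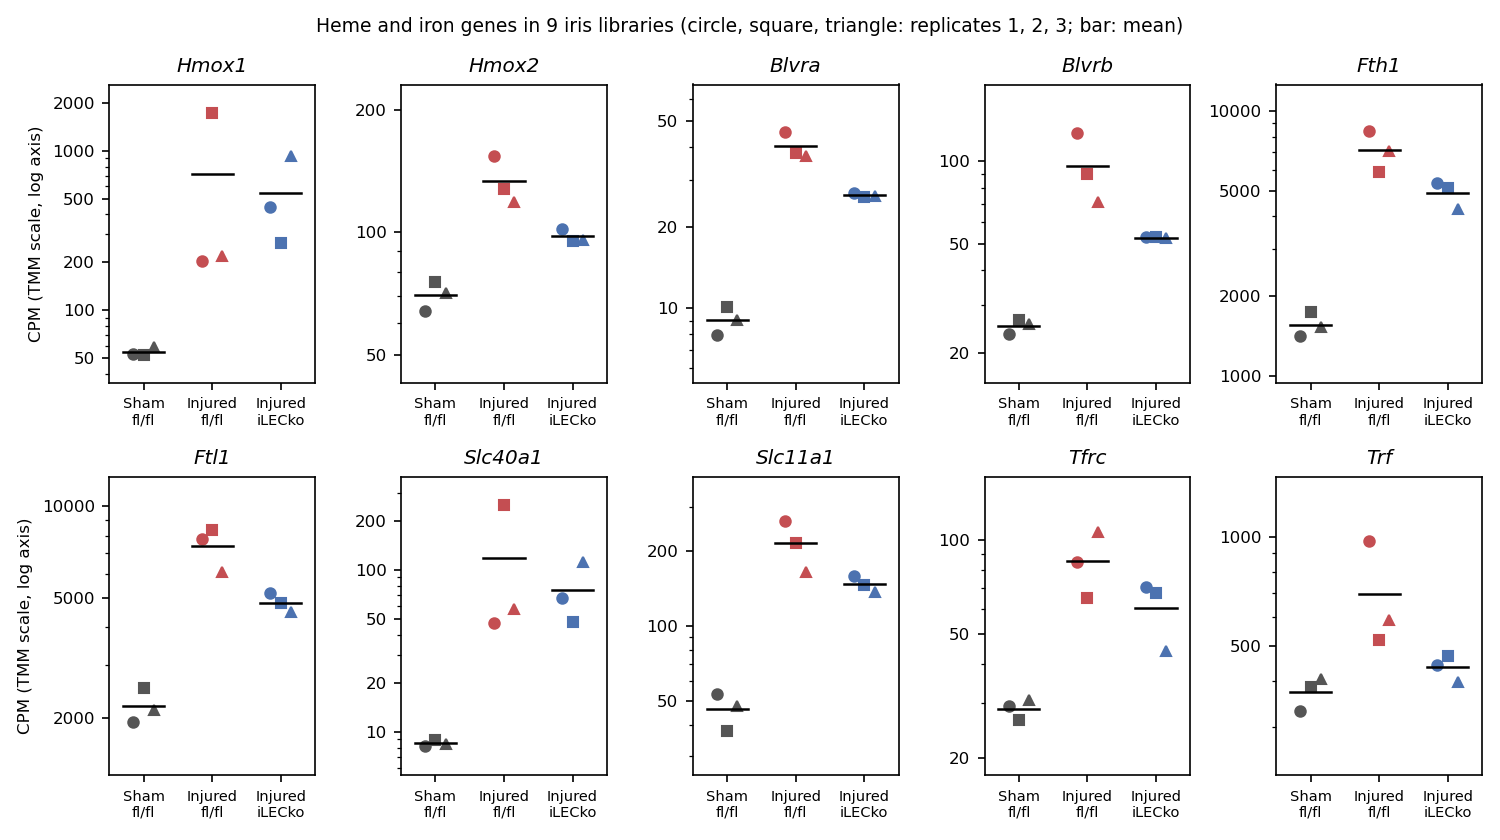
Level of each of the 10 genes in each of the 9 libraries, in CPM on the TMM scale with a logarithmic axis of its own per gene, circles, squares and triangles marking replicates 1, 2 and 3 and bars the group mean. Every injured VEGFR3fl/fl library lay above every Sham library, and Hmox1 and Slc40a1 spread far more within the injured groups than the other genes, Hmox1 from 203 to 1747 CPM in injured VEGFR3fl/fl.

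Among the heme-degrading enzymes, Hmox1 (chr8:75093621-75100589, plus strand) encodes the inducible oxygenase. It measured 53.2, 52.6 and 58.5 CPM in the Sham libraries, 203, 1747 and 220 CPM in injured VEGFR3fl/fl replicates 1 to 3, and 446, 264 and 927 CPM in labelled iLECko. Sham libraries were alike and low, and injured replicate 2 stood 8.61 times above the lowest library of its own group. Hmox1 rose with injury by 3.72 ± 0.87 on the log2 scale (SE, n = 3 against 3). Without injured replicate 2 the rise was 1.95, so the size of the change rests on that library while its direction does not.

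Hmox2 (chr16:4726361-4766742) encodes the constitutive oxygenase. Its levels were 64.3, 75.4 and 71.2 CPM in Sham, 154, 127 and 119 CPM in injured VEGFR3fl/fl, and 102, 95.5 and 96.1 CPM in labelled iLECko. The 3 groups did not overlap, and Hmox2 rose by 0.92 ± 0.10 (log2, SE) with injury. The ratio of Hmox1 to Hmox2, with each counted per length of transcript, was 0.77 to 0.91 in Sham. It reached 1.46, 15.1 and 2.04 in injured VEGFR3fl/fl and 4.82, 3.05 and 10.6 in labelled iLECko. Hmox1 thus passed Hmox2 in each of the 6 injured libraries and in none of the Sham libraries.

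Blvra (chr2:127070665-127097084), which reduces the main form of biliverdin, measured 7.92, 10.1 and 9.01 CPM in Sham and 45.5, 37.9 and 36.9 CPM in injured VEGFR3fl/fl. Labelled iLECko libraries lay between these groups at 26.9, 26.1 and 26.1 CPM. Blvra rose 4.44-fold with injury (log2 2.15 ± 0.12, SE). Blvrb (chr7:27447978-27466144) encodes a reductase of flavins and of another biliverdin isomer. It measured 23.4, 26.5 and 25.6 CPM in Sham, 126, 89.4 and 71.1 CPM in injured VEGFR3fl/fl, and 52.8, 52.8 and 52.3 CPM in labelled iLECko. The injured VEGFR3fl/fl libraries were spread over 1.78 times, the labelled iLECko libraries over 1.01 times. The rise with injury was 1.93 ± 0.18 on the log2 scale.

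Per length of transcript, ferritin messages were the most abundant of the 10 in each library. Fth1 (chr19:9980598-9985098), the heavy chain that oxidizes iron, measured 1412, 1740.5 and 1533 CPM in Sham, 8398, 5881 and 7047 CPM in injured VEGFR3fl/fl, and 5364, 5127 and 4263 CPM in labelled iLECko. Ftl1 (chr7:45457944-45459884, minus strand), the light chain that helps to lay down the iron core, measured 1947, 2520.1 and 2132 CPM in Sham, 7792, 8350.0 and 6093 CPM in injured VEGFR3fl/fl, and 5165, 4786 and 4479.9 CPM in labelled iLECko. For both chains the 3 groups were fully separate. Fth1 rose by 2.19 ± 0.16 and Ftl1 by 1.75 ± 0.15 (log2, SE). Both chains together took 0.365% to 0.448% of all counts in Sham, 1.27% to 1.46% in injured VEGFR3fl/fl and 0.865% to 1.02% in labelled iLECko. Processed copies of both genes are known in the mouse genome, and reads of 50 bases may be shared with them, so these levels are uncertain.

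Per length of transcript Ftl1 was the more abundant chain in each library. The ratio of Fth1 to Ftl1 was 0.34, 0.32 and 0.34 in Sham and 0.51, 0.33 and 0.54 in injured VEGFR3fl/fl. In labelled iLECko it was 0.49, 0.50 and 0.45. Injured replicate 2 kept the ratio of the Sham libraries, and the other 5 injured libraries lay above them. The ratio's size depends on the transcript lengths used, but its fold differences between libraries do not.

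Slc40a1 (chr1:45908068-45926523, minus strand) encodes ferroportin, the only known iron exporter of mammalian cells. It measured 8.14, 8.92 and 8.45 CPM in Sham, 47.3, 251 and 57.7 CPM in injured VEGFR3fl/fl, and 66.9, 47.8 and 113 CPM in labelled iLECko. Its high libraries were those of Hmox1, injured replicate 2 and iLECko replicate 3. The rise with injury was 3.80 ± 0.67 on the log2 scale, and 2.63 without injured replicate 2. Slc11a1 (chr1:74375195-74386062), also called Nramp1, encodes a carrier of iron and other metal ions in the phagosome of macrophages and neutrophils. Its message measured 53.1, 37.7 and 47.8 CPM in Sham, 264, 214 and 165 CPM in injured VEGFR3fl/fl, and 158, 145 and 137 CPM in labelled iLECko. Protein and transport were not measured, nor was it examined whether the carrier works in these mice. Slc11a1 showed no peak in the libraries where Slc40a1 was high, and it rose by 2.21 ± 0.18 (log2, SE).

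On the uptake side, Tfrc (chr16:32608920-32632794) measured 29.4, 26.5 and 30.6 CPM in Sham, 85.0, 65.3 and 106 CPM in injured VEGFR3fl/fl, and 70.7, 67.4 and 43.9 CPM in labelled iLECko. Its lowest libraries within the injured groups were injured replicate 2 and iLECko replicate 3, where Hmox1 and Slc40a1 were highest. Tfrc rose by 1.57 ± 0.21 with injury (log2, SE). Trf (chr9:103204001-103230444, minus strand) measured 331, 385 and 405 CPM in Sham, 974, 520 and 590 CPM in injured VEGFR3fl/fl, and 443, 469 and 398 CPM in labelled iLECko. It had the smallest rise of the 10, at 0.89 ± 0.21 (log2, SE), and its highest value was that of injured replicate 1. Without that library the value was 0.57, under the 1.5-fold limit. Trf was also the only one of the 10 whose labelled iLECko libraries overlapped Sham. The other 9 lay higher in each labelled iLECko library than in each Sham library, which held for 33.3% of all genes.

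**Figure D2:**
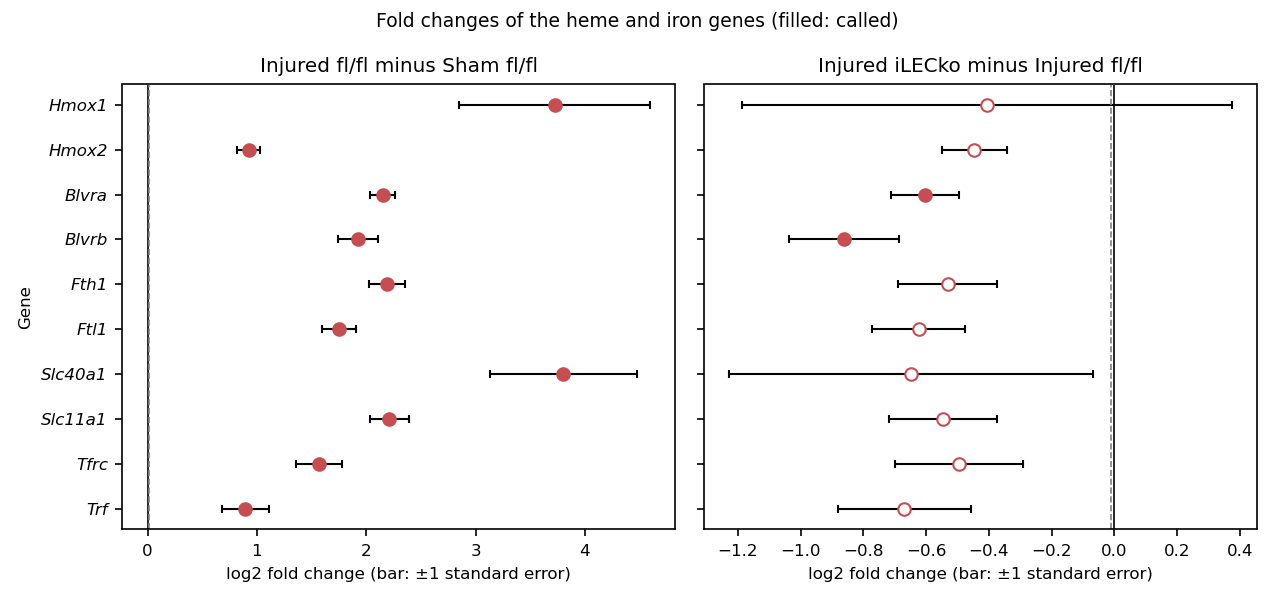
Log2 fold change of each gene with its standard error, for injured against Sham VEGFR3fl/fl (left) and for labelled iLECko against VEGFR3fl/fl after injury (right), filled where the gene was called and with the median of all genes as a dashed line. All 10 points on the left lie between 0.89 and 3.80, and all 10 on the right between −0.86 and −0.41, where only Blvra and Blvrb are filled and the bars of Hmox1 cross 0.

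The second comparison asks how injured irises labelled iLECko differ from injured VEGFR3fl/fl irises. It uses the same injured VEGFR3fl/fl libraries as the first comparison. Its values, too, were known when the genes were chosen, and they are given as a description. All 10 fold changes lay below 0, as did 51.5% of those of all genes. Their median was −0.58 on the log2 scale, beside −0.0099 for all genes. In 7 of the 10, every labelled iLECko library was below every injured VEGFR3fl/fl library, a pattern found in 14.3% of all genes. The exceptions were Hmox1, Slc40a1 and Tfrc. Of the 10, 2 were called lower and 0 higher, where 0.466% of all genes were called lower and 0.573% higher. At an unadjusted p below 0.05, 8 of the 10 differed, as did 24.5% of all genes. DESeq2 called 4 lower and 0 higher, where it called 1.88% of all genes lower and 2.29% higher. Nothing is read from these counts either.

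Blvra fell by 0.60 ± 0.11 and Blvrb by 0.86 ± 0.17 on the log2 scale (SE, n = 3 against 3), a level 1.52 and 1.82 times lower than in injured VEGFR3fl/fl. Each lay close to the threshold. Of the 20 alternative settings, Blvra lost the call in 11 and Blvrb in 14, and the direction held in each. Leaving out any single library other than injured replicate 3 ended 1 or both calls, while over all alternatives the log2 difference stayed between −0.66 and −0.47 for Blvra and between −1.04 and −0.44 for Blvrb. The other 5 genes whose groups did not overlap were not called, although Ftl1 and Trf differed by more than 1.5-fold. Their log2 differences were −0.45 ± 0.10 for Hmox2, −0.53 ± 0.16 for Fth1, −0.62 ± 0.15 for Ftl1, −0.55 ± 0.17 for Slc11a1 and −0.67 ± 0.21 for Trf.

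Hmox1 differed by −0.41 ± 0.78 and Slc40a1 by −0.65 ± 0.58, with overlapping groups. Their sign rested on 1 library and on the model fitted. Both turned above 0 when Y-linked reads entered the fit as a covariate. Without injured replicate 2 the values were 1.37 for Hmox1 and 0.53 for Slc40a1, and 8 of the 10 genes remained below 0. Tfrc differed by −0.49 ± 0.20, with iLECko replicates 1 and 2 inside the range of injured VEGFR3fl/fl. Injured replicate 3, the 1 injured VEGFR3fl/fl library with almost no Y-linked reads, lay above all 3 labelled iLECko libraries in 8 of the 10 genes, as it did in 29.7% of all genes. Hmox1 and Slc40a1 were the 2 that did not, and with 1 library there is no test.

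Markers of several cell types also differed between the groups. All 15 macrophage markers were called higher with injury (median log2 3.31) and 7 of the 15 were called lower in labelled iLECko, with 1 higher (median −0.62). Their summed level was 565 to 580 CPM in Sham, 13056 to 21448 CPM in injured VEGFR3fl/fl and 8538 to 10411 CPM in labelled iLECko, most of it Lyz2 in both injured groups. No macrophage marker was at 0 in any group. Neutrophil markers summed to 4.38 to 5.63 CPM in Sham, 167 to 542 CPM in injured VEGFR3fl/fl and 403 to 1331 CPM in labelled iLECko. All 5 tested were called higher with injury, and in labelled iLECko all 5 lay above 0 (median log2 1.33), opposite to the 10 genes, with 0 called. T cell markers were called higher with injury in 7 of 7 cases, and 6 of the 7 lay below 0 in labelled iLECko (median −0.72) with 0 called. Blood endothelial markers were called higher with injury in 4 of 7 cases and lower in 1, Cldn5 (log2 −0.79). Fibroblast markers were called higher with injury in 5 of 7 cases and lower in 0. Against this, all 7 pigment cell markers (median −2.26) and 6 of 7 iris smooth muscle markers (median −1.66) were called lower with injury, and none of these 14 was called in labelled iLECko. In whole tissue, fewer cells of a type and less RNA per cell cannot be told apart, and the part of these cells in the values of the 10 genes was not tested.

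Red blood cells bring hemoglobin, the main source of heme. The hemoglobin messages, mostly Hba-a1, Hba-a2 and Hbb-bs, summed to 541, 654 and 1186 CPM in Sham, 208, 246 and 499 CPM in injured VEGFR3fl/fl, and 400, 276 and 998 CPM in labelled iLECko. Of 5 erythroid markers tested, Hba-a2 was called lower with injury (−1.41 ± 0.50, adjusted p = 0.035 in edgeR) and 0 were called in labelled iLECko. In labelled iLECko the order of the libraries by hemoglobin messages was that by Hmox1. In injured VEGFR3fl/fl, replicate 3 had the most hemoglobin messages and replicate 2 the most Hmox1. Hemoglobin protein and heme were not measured, and a link between hemoglobin messages and Hmox1 was not tested.

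Hmox1 and Slc40a1 followed each other closely from library to library. Over the 9 libraries, with each gene taken on the log2 scale relative to its Sham mean, the gene nearest to Hmox1 among 14221 was Slc40a1, and the gene nearest to Slc40a1 was Hmox1. They differed by a root mean square of 0.35 on the log2 scale. Next to Hmox1 came Erv3 (0.36) and Cdkn3 (0.61), and next to Slc40a1 came Cdkn3 (0.40) and Gapt (0.45), all with far fewer reads. Erv3 had 72 counts in injured replicate 2 and 6 in each of injured replicates 1 and 3. Tfrc was nearest to H2-DMb1, an MHC class II chaperone subunit (0.13), Ddhd1, a phospholipase (0.16), and Sirpa, an inhibitory myeloid receptor (0.17). The points share their libraries and depths, and the likeness is a description.

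**Figure D3:**
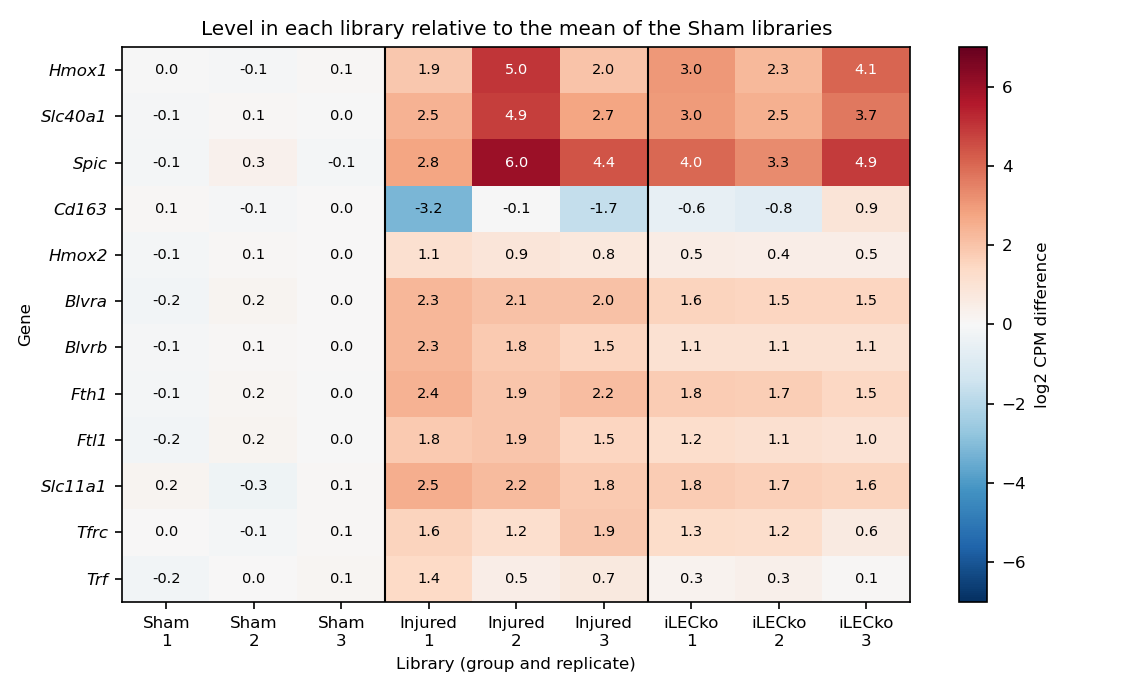
Level of the 10 genes and of Spic and Cd163 in each library, as the log2 difference in CPM from the mean of the Sham libraries, red for higher and blue for lower. Hmox1 and Slc40a1 are highest in injured replicate 2 (5.0 and 4.9) and in iLECko replicate 3 (4.1 and 3.7), where Spic and Cd163 are also the highest of their groups and Tfrc the lowest.

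Spic and Cd163 were read because both are known from macrophages that clear red cells and hemoglobin. Spic, a transcription factor needed for the iron-recycling macrophages of the spleen, measured 0.055 to 0.11 CPM in Sham, 1.15, 11.8 and 3.85 CPM in injured VEGFR3fl/fl, and 2.98, 1.76 and 5.41 CPM in labelled iLECko. It rose with injury by 6.10 ± 1.06 on the log2 scale (adjusted p = 0.00092, quasi-likelihood test of edgeR). The 3 Sham libraries held 4 counts of Spic in all, and without injured replicate 2 the rise was 4.94. Cd163, the receptor for hemoglobin bound to haptoglobin, measured 6.92, 6.21 and 6.59 CPM in Sham. It was 0.607, 6.32 and 2.01 CPM in injured VEGFR3fl/fl and 4.44, 3.79 and 12.3 CPM in labelled iLECko. Cd163 differed by −1.14 ± 0.70 with injury and was not called (adjusted p = 0.19 in edgeR). Without injured replicate 2 it was called lower, at −2.31 ± 0.63 (adjusted p = 0.014, range over the alternatives 0.0031 to 0.36, edgeR's or DESeq2's adjusted p). Spic and Cd163 were thus both highest in the libraries of their injured groups with the most Hmox1 and Slc40a1. Against the Sham mean, Cd163 was at −0.05 on the log2 scale in injured replicate 2 and at 0.90 in iLECko replicate 3, where Spic was at 5.99 and 4.88.

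**Figure D4:**
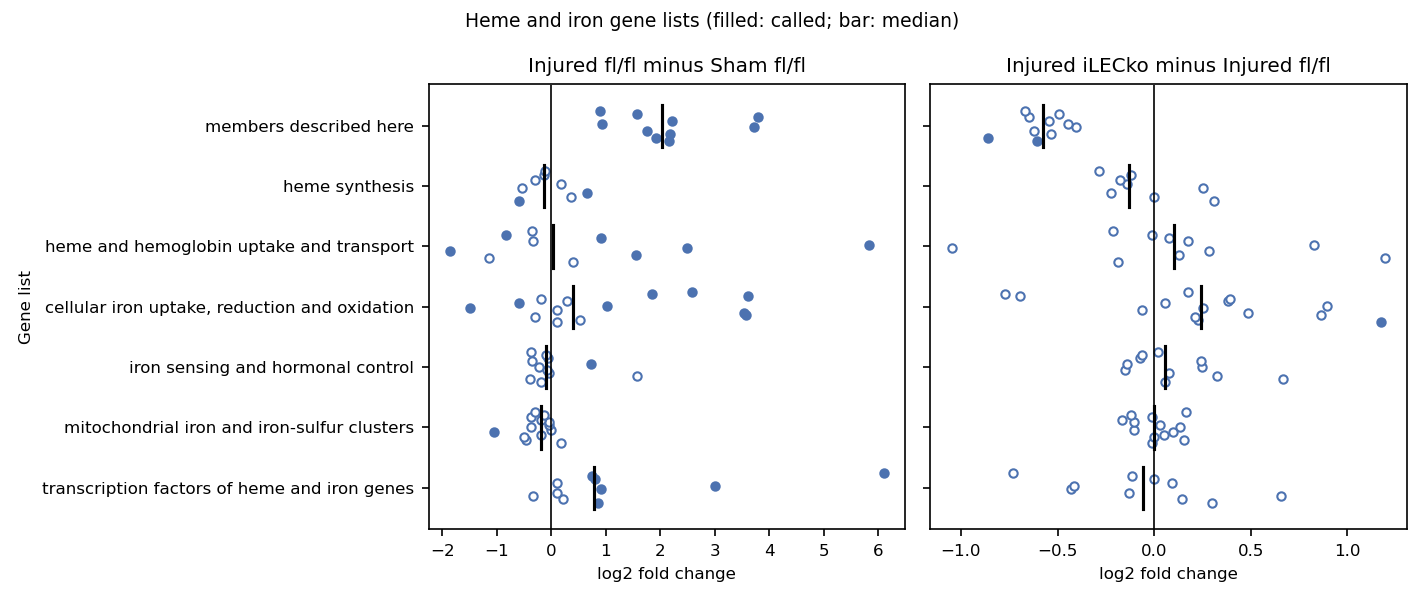
Log2 fold changes of the 10 genes and of 6 lists of other heme and iron genes in both comparisons, each point a gene, filled where called, with the median of each list as a bar. The 10 genes lie to one side of 0 in each panel, as their choice fixed, while most lists straddle 0.

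The other genes of heme and iron metabolism were read from 6 lists of 72 genes, of which 68 were in the files and 66 were tested. With injury 18 were called higher and 6 lower, and their median log2 fold change was −0.050. Of all genes, 22.1% were called higher and 17.5% lower, with a median of 0.010. In labelled iLECko against injured VEGFR3fl/fl, 1 was called higher and 0 lower, with a median of 0.052 and 29 of 66 below 0. In that comparison 0.573% of all genes were called higher and 0.466% lower.

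Heme synthesis enzymes were called in both directions. Of 8, Cpox was called higher (log2 0.66 ± 0.18, adjusted p = 0.012 in edgeR) and Alad, which joins the first pyrrole ring, was called lower with injury (−0.60 ± 0.08, adjusted p = 0.00020). Both calls lay near the 1.5-fold limit. Cpox lost its call without Sham replicate 2 or injured replicate 3 (0.48 to 0.88 over the alternatives), and Alad without Sham replicate 2 or injured replicates 1 or 2 (−0.77 to −0.55). The other 6, among them the rate-limiting Alas1, were not called, and none of the 8 was called in labelled iLECko.

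Of 10 genes of heme and hemoglobin uptake and transport, 4 were called higher and 2 lower with injury. Hp, the plasma protein that captures free hemoglobin, was at 0.332, 1.07 and 0.62 CPM in Sham and 40.9, 28.6 and 46.4 CPM in injured VEGFR3fl/fl. It was 32.8, 39.9 and 133 CPM in labelled iLECko, and it rose by 5.83 ± 0.72 (log2, adjusted p = 0.00011 in edgeR). Hebp1, a small heme-binding protein, rose by 2.48 ± 0.27, and the heme exporter Flvcr1 by 1.56 ± 0.16. Its relative Flvcr2 fell by 1.86 ± 0.33, and the heme and folate carrier Slc46a1, named after its values were seen, fell by 0.84 ± 0.11. Hemopexin (Hpx), which carries free heme in plasma, differed by −0.34 ± 0.32 and stayed at 1.15 to 2.54 CPM in all libraries. Slc48a1, which moves heme out of the lysosome, differed by −0.35 ± 0.11, below the fold limit. Hebp1 was the furthest from 0 of the list's genes below 0 in labelled iLECko, at −1.05 ± 0.25, and was not called (adjusted p = 0.068). Without injured replicate 2 it was called lower, at −1.26 ± 0.22 (adjusted p = 0.039, range over the alternatives 0.0026 to 0.55, edgeR or DESeq2).

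Among 14 tested genes of cellular iron uptake, reduction and oxidation, 6 were called higher and 2 lower with injury. Steap3, the endosomal reductase that prepares transferrin iron for export to the cytosol, measured 26.6, 29.3 and 26.5 CPM in Sham, 533, 206.0 and 269 CPM in injured VEGFR3fl/fl, and 205, 241 and 177 CPM in labelled iLECko. It rose by 3.61 ± 0.33 with injury (log2, adjusted p = 1.8e-05 in edgeR), more than Tfrc and Trf, and differed by −0.69 ± 0.30 in labelled iLECko, which was not called. Tfr2, the second transferrin receptor, rose by 2.59 ± 0.31. Lcn2, which binds bacterial iron carriers, rose by 3.57 ± 0.76, and the iron binder Ltf by 3.54 ± 0.99 from a level near 0. Lcn2 and Ltf are also neutrophil granule genes, and the neutrophil markers given above moved the same way. The part of neutrophils in the Lcn2 and Ltf values was not tested. The 2 called lower, named after their values were seen, were Slc22a17, a receptor for Lcn2 (−1.49 ± 0.19), and the metal importer Slc39a8 (−0.59 ± 0.13), which kept its call in 12 of 20 alternatives.

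Cp encodes ceruloplasmin, the ferroxidase that works beside ferroportin. It measured 189, 131 and 200 CPM in Sham, 221, 151 and 186 CPM in injured VEGFR3fl/fl, and 429, 340 and 491 CPM in labelled iLECko. Sham and injured VEGFR3fl/fl overlapped, and every labelled iLECko library lay above all 6 of their libraries. Cp was the one pathway gene called in labelled iLECko, higher by 1.17 ± 0.20 on the log2 scale (adjusted p = 0.038 in edgeR). The call was lost in 10 of 20 alternatives, among them leaving out any single library other than Sham replicate 2 or injured replicate 1, with adjusted p from 2.2e-06 to 0.30 in edgeR or DESeq2, while the log2 difference stayed between 0.92 and 1.32. Slc40a1, the message of ferroportin, was at −0.65 ± 0.58 in the same comparison.

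Of 11 tested genes of iron sensing and hormonal control, only Ncoa4, the cargo receptor that takes ferritin to the lysosome, was called higher with injury (0.72 ± 0.13, adjusted p = 0.0010 in edgeR), and without injured replicate 3 it was under the fold limit, at 0.58. The messages of the IRE-binding proteins, Aco1 and Ireb2, differed by −0.19 ± 0.08 and −0.22 ± 0.08 with injury and by 0.054 ± 0.08 and 0.25 ± 0.08 in labelled iLECko. Hamp, the gene of hepcidin, which removes ferroportin from the cell surface, was at 0.342 CPM or less in each library and was not tested.

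Transcription factors of these genes were called higher in 6 of 10 cases with injury and in 0 of 10 in labelled iLECko. Nfe2l2 (NRF2), the activator of Hmox1 and the ferritin genes, rose by 0.75 ± 0.08, and their heme-sensing repressor Bach1 rose by 0.86 ± 0.09 (adjusted p = 4.7e-05 and 5.2e-05 in edgeR). With library size only, Nfe2l2 was at 0.58, under the fold limit. Maf rose by 0.92 ± 0.10. In labelled iLECko Nfe2l2 differed by −0.11 ± 0.08 and Bach1 by 0.30 ± 0.09, neither of which was called.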

How the data were processed

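Iris RNA from 9 libraries of 3 groups was sequenced by the study as single reads of 50 bases. The authors deposited estimated counts per gene, one file per library, of which 9.83% to 10.3% of values were not whole. HISAT2 2.0.4, Bowtie2 2.2.5 and DESeq2 1.4.5 are named in the submitters' processing notes, and the counting program is not given in the sources used here. Group titles were followed where genotype tags differed. That was so for iLECko replicates 2 and 3, whose tags name depletion of a gene other than Vegfr3. Counts were rounded to whole numbers, filtered by edgeR's filterByExpr (15010 of 18349 genes), TMM-normalized (factors 0.90 to 1.09) and fitted with edgeR 4.0.16 (R 4.3.3) quasi-likelihood models over all 9 libraries, with p-values adjusted after Benjamini and Hochberg over the 15010 genes. A call needed an adjusted p below 0.05 and over 1.5-fold. Each SE is the size of the log2 fold change divided by the square root of its quasi-likelihood F statistic. It thus comes from the whole fit with its shared spread, not from the libraries of the compared groups alone. Levels are CPM. Levels between genes were divided by the longest annotated transcript (97.7% of genes had one). The fit was tested on simulated data. Alternatives included other normalizations and filters, DESeq2 1.42.0, a Y-linked covariate and leaving out each library. The genes and lists were chosen with earlier results of these data known. Named from each list were all called genes with the largest change, up to 4, and 10 genes named whatever their result. Replicates of a group differed by more than counting noise (chi-square per degree of freedom 5.13 to 76.2), and p-values measure the spread between pools of irises. A combined table repeating the counts was not used. Results of a few listed genes are not reported here.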

Additional observations from a re-analysis of the deposited data

How the results depend on the processing

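Injury left the 10 genes higher under each of 20 alternatives, and the calls held in each except that of Trf without injured replicate 1. With library size only, the median of all genes moved to −0.16 on the log2 scale with injury, and all 10 genes stayed above it. An adjusted p alone gave 16 pathway genes and 4269 of all genes lower with injury. For labelled iLECko against injured VEGFR3fl/fl, calls were less stable. The 2 genes called lower became 1 with RLE normalization or no low-count filter, 4 with DESeq2, 0 with library size only, 0 with the 6 libraries compared, 0 with the Y-linked covariate, 0 without both libraries with the highest Hmox1 (an alternative chosen after seeing the data), and 0 to 2 leaving out 1 library. Pathway genes higher became 3 with DESeq2, 0 with 6 libraries, with the covariate and without both libraries, and 0 to 1 leaving out 1 library; pathway genes lower became 1 with DESeq2 and 0 to 1 leaving out 1 library. All genes higher became 344 with DESeq2, 0 with 6 libraries, 0 with the covariate, 3 without both libraries and 0 to 174 leaving out 1 library. All genes lower became 41 with library size only, 282 with DESeq2, 0 with 6 libraries, 2 with the covariate, 2 without both libraries, 112 with an adjusted p alone and 0 to 149 leaving out 1 library. Beside these counts of 0 in edgeR, 2805 genes with 6 libraries, 1338 with the covariate and 2447 without iLECko replicate 2 had an unadjusted p below 0.05. The cause of these shifts was not tested. Hmox1 turned above 0 with the covariate (1.21), without injured replicate 2 (1.37) and without both libraries (0.75), and Slc40a1 likewise (0.32, 0.53 and 0.13). Leaving out 1 library they ranged from −1.02 to 1.37 and from −1.05 to 0.53.

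Whether replicate numbers pair the samples is not stated in the titles followed here. With each library taken relative to its group mean on the log2 scale, same-numbered libraries of different groups correlated at −0.39 to 0.13. Differently numbered ones correlated at −0.24 to 0.32. With 3 libraries per group these values cannot decide whether the numbers pair the samples. With the replicate block 0 of the 10 genes, 11 of all genes higher and 13 of all genes lower were called in labelled iLECko, and Hmox1 was at 0.063.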
